A study of Drosophila melanogaster with 4 samples.

Results

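Xrp1 and 6 genes of the integrated stress response were followed in ovaries of wuho mutant and control flies. The 7 genes are the transcription factor genes Xrp1, Irbp18 and crc, the kinase genes Gcn2 and PEK, the damage-inducible Gadd45 and the uncharacterised CG15784. They were chosen by gene name from a table of 17475 genes, at a time when their levels in these same libraries were already known. Levels are in FPKM, a read density corrected for transcript length and library size. Their levels are therefore given as a description, without a test. All 7 were found, Irbp18 under its older symbol CG6272 through its gene identifier FBgn0036126. The name crc, for cryptocephal, differs only by a capital letter from Crc, the older symbol of the calreticulin gene, and the 2 rows were kept apart.

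The integrated stress response lowers general protein synthesis when cells lack amino acids, accumulate misfolded proteins or meet other stress. Its kinases phosphorylate the alpha subunit of the initiation factor eIF2, Gcn2 after sensing uncharged tRNA or stalled ribosomes and PEK, the fly PERK, after sensing unfolded proteins in the endoplasmic reticulum. The phosphorylation favours translation of a few mRNAs, among them that of crc, the fly counterpart of ATF4. Xrp1 is a basic leucine zipper (bZIP) protein that is induced by irradiation and in cells short of a ribosomal protein, where it drives their loss in competition with healthy neighbours, and Irbp18 is its bZIP partner. The values below are mRNA levels and do not measure phosphorylation or protein.

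The compared ovaries came from flies with wh7, an allele of wuho, and from w1118 control flies, with 2 libraries of each. All flies were of the w1118 background, 7 days old and raised at 25 °C. The wuho gene encodes the fly counterpart of WDR4, a subunit of a tRNA methyltransferase. The labels do not give the nature of the allele, its dose or the number of ovaries per library. They also conflict, since each description field names RNA interference against tkv, so wuho itself was examined first. It was at 0.832 and 0.646 FPKM in the libraries labelled wh7, against 24.7 and 25.4 FPKM in those labelled control (limma adjusted p = 0.00245). The labels do not say whether libraries of a group came from separate flies. The p-values below therefore rest on the spread among these 4 libraries alone, and that spread may be technical.

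The tissue carried its germline transcripts throughout. All 13 germline markers examined were detected in every library, and their summed level was 1995 and 2110 FPKM in wh7, against 2273 and 2263 FPKM in controls. Read totals were not used here. Judged from the steps between low values, about 19 to 20 reads lay behind each FPKM of a 1-kb transcript.

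Xrp1 was the member with the largest change. Its level was 137 and 245 FPKM in wh7 1 and wh7 2, against 22.8 and 22.3 FPKM in control 1 and control 2. Both wh7 libraries stood above both controls, the lower one by 6.01-fold over the higher control. The mean was 191 ± 76.3 FPKM in wh7 and 22.6 ± 0.347 FPKM in controls (SD, n = 2 each), an 8.47-fold ratio. On the log2(FPKM + 1) scale the change was 2.97 ± 0.281 (SE), the 124th highest among the 8580 genes that reached 1 FPKM in 2 or more libraries. In level, Xrp1 exceeded 94.4% of these genes in wh7 and 42.2% of them in controls. From its longest transcript of 3619 bases, about 9940 and 16870 reads lay behind the wh7 values and 1640 and 1550 behind the control values. The spread was in wh7, where wh7 2 was 1.79 times wh7 1, while control 2 was 0.978 times control 1. The ratio of means was 10.9 without wh7 1 and 6.08 without wh7 2. Xrp1 (FBgn0261113) lies on the plus strand of chromosome 3R at 18914968 to 18926989 (BDGP6), has 7 annotated transcripts and shares no exon with another gene.

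Irbp18, the partner of Xrp1, changed far less. It was at 32.4 and 37.9 FPKM in wh7, against 26.0 and 25.2 FPKM in controls, a 1.37-fold ratio of means. Both wh7 values lay above both controls, the lower one by 1.24-fold over the higher control. The proportion of the pair differed between genotypes. Within a library, Xrp1 FPKM was 4.24 and 6.47 times Irbp18 FPKM in wh7, against 0.877 and 0.886 times in controls. Irbp18 (minus strand, chromosome 3L, 11097446 to 11098186) is short, with 614 exon bases, and about 400 and 440 reads lay behind the wh7 values and 320 and 300 behind the control values. The deposited table gives it 1 locus with APP-BP1 and CG33947, and CG33947 shares 95 exon bases with it on the opposite strand. The sources used here do not say whether strand was used in counting, so the level of Irbp18 is uncertain to that extent.

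crc, the ATF4 gene, was the most abundant member in all 4 libraries. It was at 389 and 436 FPKM in wh7, against 166 and 198 FPKM in controls. The means were 412 ± 32.95 FPKM in wh7 and 182 ± 22.7 FPKM in controls (SD, n = 2 each), a 2.27-fold ratio. On the log2 scale the change was 1.18 ± 0.121 (SE). crc was already above 93.8% of tested genes in controls and exceeded 97.4% of them in wh7. The proportion of crc to Xrp1 differed too, with crc FPKM at 2.83 and 1.78 times Xrp1 FPKM in wh7, against 7.26 and 8.86 times in controls. crc (FBgn0000370) lies on the plus strand of chromosome 2L at 21310866 to 21319527. The BDGP6 annotation used here places a further gene, CG46314, on 2515 of its exon bases in the same orientation. CG46314 has no row in the deposited table, so reads of the 2 genes cannot be told apart.

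The kinase genes upstream of crc were slightly lower in wh7. Gcn2 was at 19.5 and 19.7 FPKM in wh7, against 25.0 and 24.1 FPKM in controls, and its wh7 mean was 79.8% of its control mean. PEK was at 52.4 and 53.4 FPKM in wh7, against 69.6 and 60.1 FPKM in controls, with a wh7 mean at 81.6% of the control mean. Both genes were below either control in both wh7 libraries, but 77.0% of tested genes had no overlap between groups. Both were very close between the wh7 libraries (ratios of wh7 2 to wh7 1 of 1.01 and 1.02). Their log2 changes were -0.31 ± 0.0997 and -0.28 ± 0.10 (SE), against a median of -0.041 over all tested genes. Neither gene was called, and 25.85% (Gcn2) and 28.11% (PEK) of tested genes had a still lower change. Their proportion was kept, with PEK FPKM at 2.69 and 2.71 times Gcn2 FPKM in wh7, against 2.79 and 2.49 times in controls. Gcn2 (plus strand, 3R, 31395660 to 31402013) shares 454 exon bases with PNPase on the opposite strand, and its deposited locus is merged with those of CG11337 and Gprk2. PEK (minus strand, 3R, 5458563 to 5464753) shares no exon with another gene.

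Gadd45 and CG15784 were low in controls and higher in wh7. Gadd45, whose mammalian counterparts are induced by DNA damage and activate a MAP kinase kinase kinase, was at 23.6 and 43.7 FPKM in wh7, against 3.45 and 7.70 FPKM in controls. The lower wh7 library was 3.07-fold above the higher control. The ratio of means was 6.04, from 33.7 ± 14.2 FPKM in wh7 and 5.58 ± 3.01 FPKM in controls (SD, n = 2 each), but 9.76 without control 2. Gadd45 was the member whose controls differed most, by 2.23-fold, on about 100 and 220 reads. CG15784, an uncharacterised gene, was at 44.4 and 62.5 FPKM in wh7, against 9.21 and 8.04 FPKM in controls. Its groups were separated by 4.82-fold at their nearest values, and the ratio of means was 6.20. On the log2(FPKM + 1) scale the changes were 2.42 ± 0.438 (SE) for Gadd45 and 2.48 ± 0.195 (SE) for CG15784. Gadd45 lies on the plus strand of chromosome 2R at 7249161 to 7250655 and CG15784 on that of chromosome X, from 5429571 to 5432526, and neither shares an exon with another gene.

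**Figure D1:**
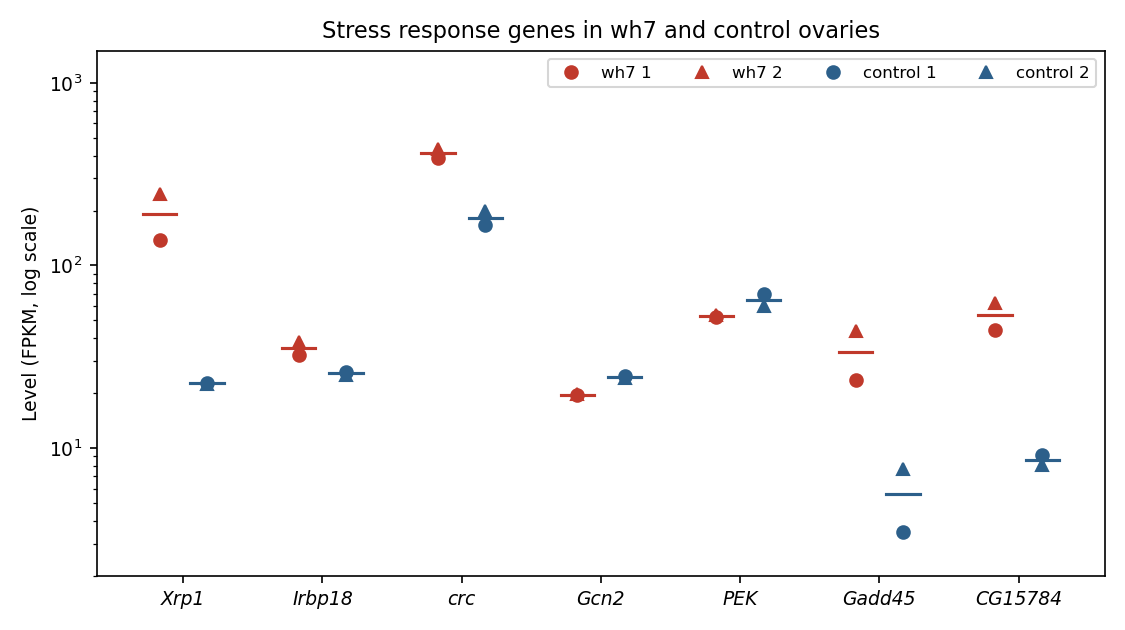
Level of each of the 7 genes in FPKM on a log axis, with wh7 libraries left (red) and control libraries right (blue); circles are libraries 1, triangles libraries 2, and bars the means. Xrp1, Gadd45 and CG15784 stand 6.04-fold to 8.47-fold higher in wh7, crc 2.27-fold, Irbp18 1.37-fold, and Gcn2 and PEK slightly below the controls.

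Across the 7 genes the order of levels differed between genotypes. In both wh7 libraries crc and Xrp1 were the 2 highest and Gcn2 the lowest. In both controls the order was crc, PEK, Irbp18, Gcn2, Xrp1, CG15784 and Gadd45, in which Irbp18, Gcn2 and Xrp1, at 22.3 to 26.0 FPKM, were close neighbours whose values did not overlap. In wh7 the values of CG15784 and PEK overlapped, as did those of Irbp18 and Gadd45, so their order there was not settled. The summed level of the 7 genes was 699 and 898 FPKM in wh7, against 322 and 345 FPKM in controls. All 7 genes had no overlap between groups, a feature shared by 77.0% of tested genes. Of the 7, 5 passed the threshold of limma, a linear model with pooled variance, fitted across all 8580 genes (adjusted p under 0.05), against 39.7% of all tested genes. Irbp18 lost its call without any 1 library, without the trend and with crossed blocks, Gadd45 lost its call without control 1, wh7 1 or wh7 2, and CG15784 alone was called with no filter. These 5 were higher in wh7, against 21.2% of all tested genes, and 0 members were called lower, against 18.4%. The authors' deposited table marks 4 of the 7 as significant (Xrp1, crc, Gadd45 and CG15784, each with q = 8.70e-04), against 9.50% of its 17475 rows, and gives q = 0.758 for Irbp18, 0.729 for Gcn2 and 0.482 for PEK. Because the genes were chosen with this comparison known, these counts lend no support to any reading of the group. All 7 exceeded 1 FPKM in each control and so entered the fit without help from the wh7 values.

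**Figure D2:**
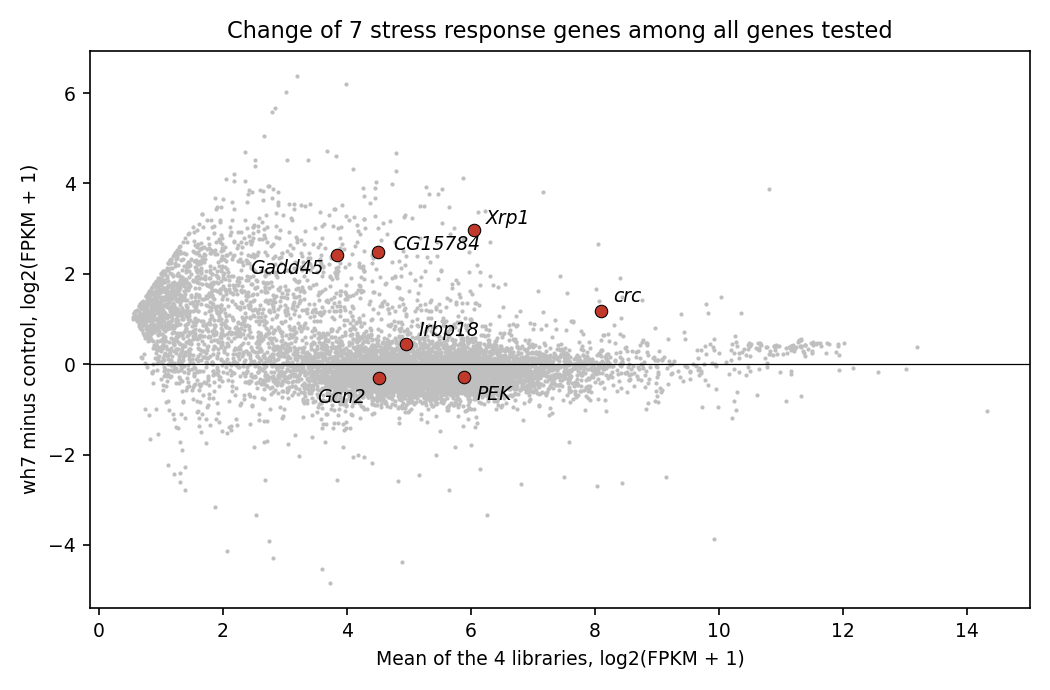
Difference wh7 minus control against the mean level of the 4 libraries, both on the log2(FPKM + 1) scale, for 8580 tested genes (grey) and the 7 stress response genes (red). Xrp1 at 2.97 has the 124th highest change of the tested genes, while Gcn2 at -0.31 and PEK at -0.28 lie just below the line of no change.

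The wh7 libraries differed from each other in the same direction for every member. wh7 2 was above wh7 1 in 7 of 7 genes, against 51.9% of all tested genes. The excess was 1.79-fold for Xrp1, 1.85-fold for Gadd45 and 1.41-fold for CG15784, but only 1.01-fold to 1.17-fold for the other 4. Over all tested genes the median ratio of wh7 2 to wh7 1 was 1.01, and 9.94% of genes had a ratio of at least 1.4. Summed markers of cell types also differed between the wh7 libraries, in both directions. The summed level of 14 muscle sheath markers was 1664 and 2773 FPKM in wh7 1 and wh7 2, against 410 and 441 FPKM in control 1 and control 2. That of 9 hemocyte markers was 208 and 273 FPKM in wh7, against 29.8 and 47.4 FPKM in controls. Fat body (63.2 and 58.1 FPKM) and follicle cell sums (7170 and 5315 FPKM) were instead lower in wh7 2 than in wh7 1. The fat body fall lay mainly in Obp99a (50.6 and 25.8 FPKM), while Tsf1 (5.37 and 15.05 FPKM) and Rfabg (5.34 and 11.7 FPKM) were higher in wh7 2. The follicle cell fall lay mainly in Cp36 (1480 and 249 FPKM) and Vm26Aa (2561 and 1217 FPKM). Most other tested follicle cell markers, such as Fas3 (97.1 and 126.7 FPKM), were higher in wh7 2, so these sums do not show how most markers moved.

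Muscle and hemocyte transcripts were raised beside Xrp1, and their part in its level was not tested. Over all tested genes 21.2% were called higher and 18.4% lower. Of the muscle markers 13 of 14 tested (92.9%) were called higher. Of the 13, sls and Unc-89 were under 1 FPKM in both controls and could enter the fit only through wh7. The list was led by the troponin C gene TpnC73F at 204 and 294 FPKM in wh7, against 12.2 and 14.1 FPKM in controls (limma adjusted p = 0.00281). The myosin heavy chain gene Mhc was 21.7-fold higher (limma adjusted p = 0.00693), but 30.7-fold without wh7 1 and 12.8-fold without wh7 2. Of 6 tested hemocyte markers 5 (83.3%) were called higher, but 2 of these, Hml and Sr-CI, were under 1 FPKM in both controls and could enter the fit only through wh7. Among the others were the scavenger receptor gene crq (9.60-fold, limma adjusted p = 0.00679; call lost without wh7 2, and 15.1-fold without control 1) and the peroxidasin gene Pxn (44.5-fold, limma adjusted p = 0.00664; 25.9-fold without wh7 2 and 67.0-fold without control 2). The defining hemocyte markers NimC1 and He were listed at 0 in both controls and stayed under 1 FPKM in wh7.

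Fat body and follicle cell markers moved as well. Of 8 fat body markers 3 could be tested and all 3 were called higher, against 21.2% of all tested genes, but their calls were lost without control 1. Among them were Obp99a (7.11-fold, limma adjusted p = 0.00912) and the transferrin gene Tsf1 (91.1-fold, limma adjusted p = 0.0119). Tsf1 was 47.9-fold higher without wh7 2 and 139.6-fold without control 2. It was under 1 FPKM in both controls and could enter the fit only through wh7. Summed fat body markers were 63.2 and 58.1 FPKM in wh7, against 7.21 and 8.25 FPKM in controls, with Fbp1, Fbp2 and Lsp1alpha at 0 in both controls. Of 13 tested follicle cell markers 7 (53.8%) were called higher and 1 (7.69%) lower, with fewer called higher without wh7 2. The risers were led by the adhesion gene Fas3 (6.74-fold, limma adjusted p = 0.00568) and the metalloproteinase gene Mmp2 (6.92-fold, limma adjusted p = 0.0100). The Mmp2 call was lost without wh7 2, and its ratio was 10.8-fold without control 2. The 1 called lower was cad, at 117 ± 13.7 FPKM in wh7 and 187.5 ± 6.39 FPKM in controls (SD, n = 2, limma adjusted p = 0.0131). Whether cad marks follicle cells in this tissue was not examined. The follicle cell sum, 7170 and 5315 FPKM in wh7, against 2521 and 9308 FPKM in controls, overlapped between groups. Its largest terms by mean were the eggshell and yolk genes Vm26Aa, Yp2 and Cp36. Cp36 alone was at 1480 and 249 FPKM in wh7, against 390 and 3571 FPKM in controls. The 7 genes called higher, at 2.57-fold (br) to 6.92-fold (Mmp2), did not overlap between groups. Their wh7 means were at most 112 FPKM (Fas3), so the sum hardly reflects them. Of 13 germline markers 2 (15.4%) were called higher and 5 (38.5%) lower, against 21.2% and 18.4% over all tested genes. Fewer were called lower without any 1 library. piwi was at 1.87-fold (limma adjusted p = 0.00516) and bcd at 0.610-fold (limma adjusted p = 0.0222). Whether piwi transcripts came from germline cells alone was not examined. The bcd call was lost without control 1, control 2 or wh7 2. In RNA of whole ovaries, a change in the number of cells of a type and a change in RNA per cell cannot be told apart.

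**Figure D3:**
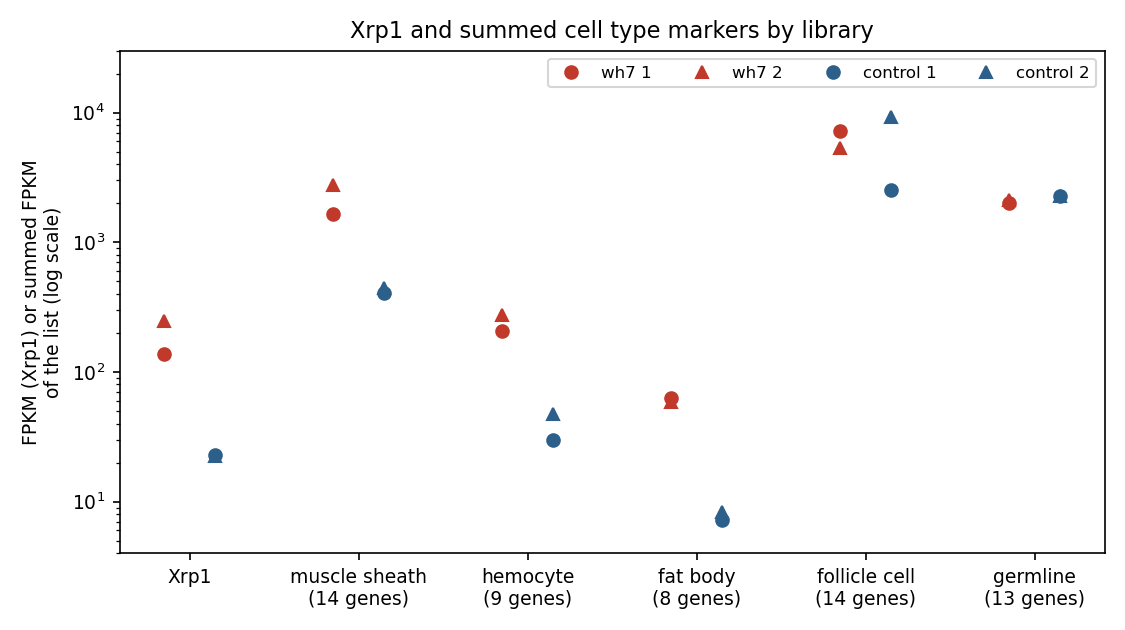
FPKM of Xrp1 and summed FPKM of 5 lists of cell type markers in each library, on a log axis, with wh7 left (red) and control right (blue). Muscle, hemocyte and fat body sums, like Xrp1, are higher in both wh7 libraries. Follicle cell sums, made up largely of eggshell and yolk genes, overlap. Germline sums are 1995 to 2110 FPKM in wh7 against 2263 to 2273 FPKM in controls.

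Genes of eIF2 and its regulators had few calls. eIF2alpha, whose product the kinases phosphorylate, was singled out afterwards. It was at 190 and 215.5 FPKM in wh7, against 171 and 169 FPKM in controls, without overlap and not called (1.19-fold, limma adjusted p = 0.0808). Of 16 tested genes of eIF2, its exchange factor eIF2B, its phosphatase and the factors that help re-initiation, 0 rose and 2 (12.5%) fell (1 rose after quantile normalization). Over all tested genes 21.2% were called higher and 18.4% lower, so the falls do not set the list apart. The median log2 change was -0.03, against -0.04 over all genes. The fallen genes were eIF2Bdelta, a regulatory subunit of the exchange factor (56.0 ± 2.20 FPKM in wh7 and 68.6 ± 0.911 FPKM in controls; SD, n = 2; limma adjusted p = 0.0416), and NAT1, which encodes an eIF4G-like factor (279 ± 1.99 FPKM in wh7 and 341 ± 18.8 FPKM in controls; SD, n = 2; limma adjusted p = 0.0454). Both calls were lost on leaving out any 1 library. PPP1R15, the regulatory subunit that directs the phosphatase to eIF2 and in mammals a target of ATF4, was singled out afterwards. It was at 68.7 and 75.9 FPKM in wh7, against 72.8 and 64.9 FPKM in controls, and the groups overlapped (1.05-fold, limma adjusted p = 0.597; 0.994-fold without control 2).

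Of 18 tested genes known as targets of ATF4 in flies or mammals, 5 rose, 2 fell and 11 did not pass, and the median log2 change was 0.07. These are 27.8% and 11.1% of the list, against 21.2% called higher and 18.4% called lower over all tested genes, so the counts do not set the list apart. Thor, the translation inhibitor 4E-BP, was at 309 and 369 FPKM in wh7, against 81.5 and 92.95 FPKM in controls, 3.89-fold higher (limma adjusted p = 0.00374). P5CS, a proline synthesis enzyme gene, was at 5.18 and 4.68 FPKM in wh7, against 0.249 and 0.360 FPKM in controls (limma adjusted p = 0.00516). These 2 kept their calls in each of the 4 fits that left out 1 library.

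The other risers changed more with the libraries used. Ldh, the lactate dehydrogenase gene, was at 10.2 and 28.1 FPKM in wh7, against 0.236 and 0.815 FPKM in controls, a 36.5-fold ratio (limma adjusted p = 0.0111) that was 53.6 without wh7 1, 19.4 without wh7 2, 23.5 without control 1 and 81.2 without control 2. Its call was lost without control 1. The predicted amino acid transporter gene sbm was 3.84-fold higher (limma adjusted p = 0.00819; call lost after quantile normalization or without control 1). JhI-21, a further transporter gene named after its values were seen, was 1.58-fold higher (limma adjusted p = 0.00831; call lost without control 1 or wh7 2). P5CS and Ldh were under 1 FPKM in both controls and could enter the fit only through wh7.

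The fallen targets, also named afterwards, were slif, an amino acid transporter gene, at 63.5 ± 5.56 FPKM in wh7 and 94.1 ± 2.46 FPKM in controls (SD, n = 2; limma adjusted p = 0.0147), and Cbs, the cystathionine beta-synthase gene, at 63.6 ± 8.73 FPKM in wh7 and 94.3 ± 14.9 FPKM in controls (SD, n = 2; limma adjusted p = 0.0456). The slif call was lost without control 1, control 2 or wh7 2 and the Cbs call without any 1 library. Serine and asparagine synthesis genes, also named afterwards, had means near their control levels. AsnS was at 1.07-fold, Phgdh at 0.970-fold and Psat at 0.941-fold (limma adjusted p = 0.680, 0.661 and 0.597), and each of these differences changed sign in some alternative fits. Nmdmc, a mitochondrial folate enzyme gene named after its values were seen, was at 24.7 and 41.4 FPKM in wh7, against 13.1 and 18.2 FPKM in controls, without overlap but short of the threshold (limma adjusted p = 0.0521; 0.0167 to 0.221 in alternative fits). trbl, named afterwards too and with a mammalian counterpart that is an ATF4 target, was at 43.4 and 72.2 FPKM in wh7, against 30.9 and 31.7 FPKM in controls (limma adjusted p = 0.0564; called higher without wh7 1). With 1 library left out the calls of the ATF4 list changed. Fewer genes were then called over all tested genes too, so a lost call is not particular to this list.

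**Figure D4:**
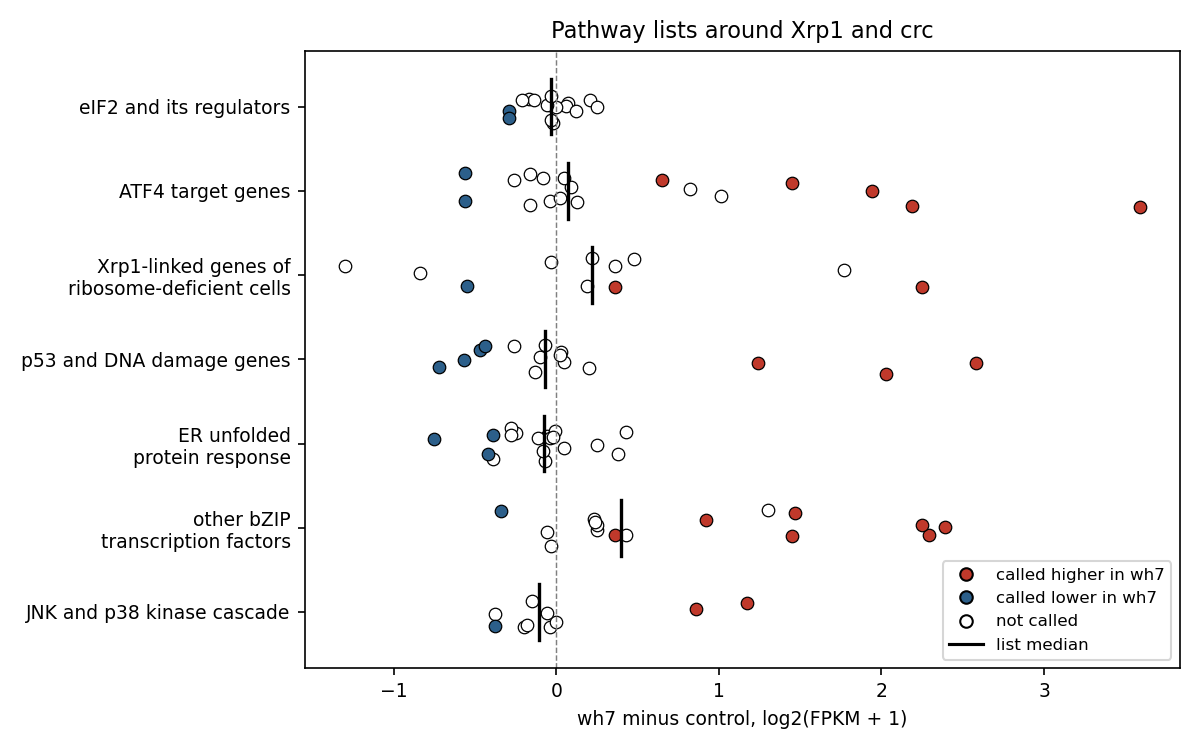
Difference wh7 minus control on the log2(FPKM + 1) scale for the tested genes of 7 pathway lists, red where called higher in wh7, blue where called lower and white where not called; black bars are list medians. The eIF2 and unfolded protein response lists lie close to 0, while single genes of the ATF4, p53 and bZIP lists reach 2.39 (Atf3) to 3.59 (Ldh).

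The unfolded protein response of the endoplasmic reticulum, which PEK serves, had few calls. Of 18 tested genes 0 rose and 3 (16.7%) fell, against 21.2% called higher and 18.4% called lower over all tested genes, with a median of -0.08. The share that fell lies near that over all genes, so the falls do not set the list apart. With 1 library left out fewer falls were called, as was so over all tested genes. Xbp1 was called higher with the replicate number as a block. The oxidase gene Ero1L was at 31.2 ± 1.93 FPKM in wh7 and 53.2 ± 4.14 FPKM in controls (SD, n = 2; limma adjusted p = 0.0104; call lost without control 1 or wh7 2). Hsc70-3, the BiP chaperone gene, was at 403 ± 30.6 FPKM in wh7 and 540 ± 39.8 FPKM in controls (SD, n = 2; limma adjusted p = 0.0350), and Herp, a degradation factor gene, was at 31.2 ± 1.35 FPKM in wh7 and 41.2 ± 1.64 FPKM in controls (SD, n = 2; limma adjusted p = 0.0313). The Hsc70-3 and Herp calls were lost without any 1 library. Xbp1, the transcription factor gene of the Ire1 branch, was singled out afterwards, at 148 and 194 FPKM in wh7, against 123 and 128 FPKM in controls (limma adjusted p = 0.0680; 0.0305 without wh7 1).

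Of 11 tested genes linked to Xrp1 in cells short of a ribosomal protein, 2 rose, 1 fell and 8 did not pass. The shares of 18.2% higher and 9.09% lower are at or below the 21.2% and 18.4% over all tested genes, and the counts do not set the list apart. With 1 library left out the calls of the list changed, as did those over all tested genes. GstD2, a glutathione transferase gene, was at 16.5 and 25.0 FPKM in wh7, against 3.90 and 3.09 FPKM in controls (5.94-fold, limma adjusted p = 0.00704), and maf-S, a bZIP partner of the antioxidant factor cnc, was 1.29-fold higher (limma adjusted p = 0.0352; call lost without any 1 library). GstD1 fell to 816 ± 9.90 FPKM in wh7, against 1194 ± 54.0 FPKM in controls (SD, n = 2; limma adjusted p = 0.0185; call lost without any 1 library). Several genes of this list, singled out afterwards, varied between the wh7 libraries. The relaxin-like hormone gene Ilp8, which Xrp1 is known to raise in such cells of growing imaginal discs, was at 70.1 and 38.02 FPKM in wh7, against 94.8 and 91.4 FPKM in controls (limma adjusted p = 0.0778; 0.0169 without wh7 1). GstE1 was at 25.5 and 70.3 FPKM in wh7, against 104.5 and 108 FPKM in controls (limma adjusted p = 0.0853; called lower without wh7 1 or without wh7 2, with ratios of 0.662 and 0.240). upd3, a cytokine gene, was at 1.602 and 7.73 FPKM in wh7, against 0.241 and 0.566 FPKM in controls (limma adjusted p = 0.0741). The upd3 ratio of 11.6 was 19.2 without wh7 1, where it was called higher, 3.97 without wh7 2 and 19.4 without control 2, and the gene could enter the fit only through wh7. RpS12, a ribosomal protein gene needed for Xrp1 induction in such cells, was at 1622 and 1492 FPKM in wh7, against 1236 and 1512 FPKM in controls, with overlap (limma adjusted p = 0.358).

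Of 15 tested genes of the p53 and DNA damage pathway, through which Xrp1 is known to respond to irradiation, 3 rose and 4 fell. The median was -0.07. Fewer falls were called with 1 library left out, as was so over all tested genes. The shares of 20% higher and 26.7% lower lie near the 21.2% and 18.4% over all tested genes, so the counts do not set the list apart. All 3 risers are death or death ligand genes. rpr, reaper, was at 4.63 and 9.51 FPKM in wh7, against 0.253 and 0.327 FPKM in controls, 24.4-fold higher (limma adjusted p = 0.00945; call lost without control 1, and 16.0-fold without wh7 2). It was under 1 FPKM in both controls. hid, a further death gene, was at 24.7 and 25.9 FPKM in wh7, against 10.2 and 10.1 FPKM in controls, 2.49-fold higher (limma adjusted p = 0.00556), and kept its call without any 1 library. egr, the tumour necrosis factor ligand gene, was 5.14-fold higher (limma adjusted p = 0.00937; call lost without wh7 2). p53 itself, singled out afterwards, was at 19.4 and 18.7 FPKM in wh7, against 16.0 and 16.8 FPKM in controls (limma adjusted p = 0.199).

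The 4 fallen genes serve damage signalling or repair. mus304, the ATRIP gene, was at 10.6 ± 1.52 FPKM in wh7 and 18.1 ± 0.265 FPKM in controls (SD, n = 2; limma adjusted p = 0.0222). The other three were named after their values were seen. lok, the Chk2 kinase gene, was at 0.671-fold (limma adjusted p = 0.0140), grp, the Chk1 kinase gene, at 0.736-fold (limma adjusted p = 0.0285) and Irbp, the Ku70 gene, at 0.718-fold (limma adjusted p = 0.0385). The calls of mus304, grp and Irbp were lost without control 1, control 2 or wh7 2, and that of lok without control 1, wh7 1 or wh7 2.

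Several other bZIP transcription factor genes were also higher in wh7. Of 16 tested, 7 (43.8%, against 21.2% over all tested genes) rose and 1 fell, with a median of 0.39, against -0.04 over all genes. The list was chosen with earlier results of these data known, so its larger share of risers lends no support to any reading of it. Fewer of its genes were called with 1 library left out, as was so over all tested genes. Atf3, a stress-inducible factor, was at 9.04 and 14.7 FPKM in wh7, against 1.06 and 1.78 FPKM in controls, 8.34-fold higher (limma adjusted p = 0.00850). vri, a circadian and ecdysone-regulated repressor, was 5.58-fold higher at 24.0 and 26.2 FPKM in wh7, against 4.83 and 4.17 FPKM in controls (limma adjusted p = 0.00368). kay, the Fos subunit of AP-1, was at 48.0 and 81.7 FPKM in wh7, against 10.2 and 14.0 FPKM in controls (5.35-fold, limma adjusted p = 0.00909; call lost without control 1). tj, a factor of somatic gonad cells that is also in the follicle cell list, was 2.78-fold higher (limma adjusted p = 0.0146; call lost without wh7 1 or wh7 2).

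Pdp1, REPTOR-BP and maf-S complete the 7. Pdp1 was 2.80-fold higher (limma adjusted p = 0.0112; call lost without wh7 2) and REPTOR-BP, a partner of the transcription factor REPTOR downstream of TORC1, 1.92-fold higher at 64.2 and 63.7 FPKM in wh7, against 32.2 and 34.3 FPKM in controls (limma adjusted p = 0.00553). Jra, the Jun partner of kay, fell to 43.3 ± 2.47 FPKM in wh7, against 55.2 ± 2.30 FPKM in controls (SD, n = 2; limma adjusted p = 0.0389; call lost without any 1 library). Pdp1, REPTOR-BP and Jra were named after their values were seen. Atf3, vri and REPTOR-BP kept their calls in each of the 4 fits that left out 1 library. slbo, the C/EBP gene of border cells, was at or under 1.32 FPKM in every library and could not be tested.

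Kinases of the JNK and p38 cascades, which Gadd45 proteins are known to engage in mammals, had few calls. Of 10 tested genes 2 rose, 1 fell and 7 did not pass, shares near those over all tested genes. Some of these calls were lost with 1 library left out, as were many over all tested genes. puc, the JNK phosphatase gene and a readout of the pathway, was at 48.7 and 70.9 FPKM in wh7, against 25.0 and 26.1 FPKM in controls (2.34-fold, limma adjusted p = 0.0149; call lost without control 1 or control 2). bsk, the JNK gene, was at 32.9 and 33.1 FPKM in wh7, against 18.1 and 17.4 FPKM in controls (1.86-fold, limma adjusted p = 0.00753; call lost without wh7 2). slpr, a kinase gene upstream of JNK, fell to 44.95 ± 0.625 FPKM in wh7, against 58.7 ± 5.11 FPKM in controls (SD, n = 2; limma adjusted p = 0.0368; call lost without any 1 library). Mekk1, the counterpart of the kinase that Gadd45 binds in mammals, was singled out afterwards at 45.8 and 43.8 FPKM in wh7, against 47.2 and 44.9 FPKM in controls (limma adjusted p = 0.736), and the sign of this difference changed with the scaling.

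The members differed in how near their values over the libraries lay to those of Xrp1. Likeness was measured as the Euclidean distance between log2(FPKM + 1) values over the 4 libraries, each gene centred on its mean. Among the members CG15784 was nearest to Xrp1, at 0.554, followed by Gadd45 at 0.897, crc at 1.86, Irbp18 at 2.57, PEK at 3.30 and Gcn2 at 3.33. Even so, 76 protein-coding genes outside the members lay nearer to Xrp1 than CG15784 did. The nearest of all was CG6074, at a distance of 0.0634, with 14.8 and 27.5 FPKM in wh7, against 1.67 and 1.77 FPKM in controls. CG42450 (0.139), CG32444 (0.156), CG15293 (0.181) and CG13905 (0.181) followed. These 4 were under 1 FPKM in both controls, and CG13905 was listed at 0 there and at 4.18 and 8.21 FPKM in wh7. The distances rest on 4 libraries in 2 genotypes and so mainly restate the size of each gene's change between genotypes. A gene moving in step with Xrp1 by a smaller amount counts as distant. The order of the members therefore adds little to their log2 changes and does not show that genes moved together.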

How the data were processed

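RNA of fly ovaries was sequenced in 4 strand-specific libraries as single reads of 75 bp, per the labels' protocols. bcl2fastq 2.0 and Bowtie 0.12.2, and the builds BDGP6 and mm8 without a role, are named per the submitters' processing notes. The authors deposited FPKM per library and per genotype, with 0.0001 standing for 0 (set to 0 here), along with each gene's ratio between genotypes, log2 ratio, p-value and q-value, per the file headers. The sources used here do not give the tool and test behind them, or read totals. Deposited starts count from 0, so 1 was added; for 5 of the 7 genes the locus then equalled the BDGP6 gene.

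FPKM are not counts, so no count model was used. limma (3.58.1, in R 4.3.3) was fitted with a mean-variance trend to log2(FPKM + 1) of genes reaching 1 FPKM in 2 or more libraries (8580, of which 785 were under 1 FPKM in both controls and entered through wh7), with Benjamini-Hochberg adjustment over all of them and 0.05 as the threshold. All adjusted p of genes are limma's. With 1 library left out fewer genes were called over all tested genes, so a call lost there is not particular to its gene or list. Ratios are of mean FPKM; log2 changes understate the change of low genes. An exact permutation test of 2 libraries against 2 cannot give a p below 0.333, so adjusted p rest on the spread pooled across genes. The fit was also run on simulated data, with replicate spreads shuffled among genes and far fewer changed genes than were called here. That setting differs from these data, so it does not measure the error rate of these calls.

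The members, 7 pathway lists and 5 marker lists were chosen with earlier results of these data known. A few genes stand in 2 lists. Named genes were the members, wuho, up to 4 called genes of each pathway list (2 of each marker list) with the largest change, or the 2 highest in expression where fewer than 2 were called, and the 5 nearest patterns to Xrp1. Others are marked as named or singled out afterwards. Replicate numbers follow the accession order; 0 per-library columns were left out.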

Additional observations from a re-analysis of the deposited data

How the results depend on the processing

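For the 7 members the direction of change held under every alternative fitted (other pseudocounts, filters, scalings, no trend, replicate blocks, and 1 library left out). The log2 change of Xrp1 was 2.55 to 3.38 with 1 library left out. The number of members called was 1 (CG15784) with no filter on low values, and 3 (Xrp1, crc and CG15784) without control 1, wh7 1 or wh7 2. The total of 3403 calls (1820 higher, 1583 lower) was 1238 with no filter (948 higher, 290 lower) and 611 to 2002 with 1 library left out (551 to 1397 higher, 60 to 605 lower). The number called higher was 1087 with a filter of 5 FPKM and 1167 after quantile normalization. With no filter, 17475 genes were tested, and of the pathway genes named Thor, P5CS, JhI-21, hid, vri, REPTOR-BP and bsk kept their calls. Direction was not followed for eIF2alpha or for several markers, such as cad and Rfabg. It held for the other genes named, except for 5 uncalled ones. The log2 change of Phgdh turned to 0.03 and that of Psat to 0.01 after quantile normalization, and that of Mekk1 to 0.06. With median ratio scaling Phgdh was at 0.00 and Mekk1 at 0.01. With 1 library left out, AsnS was at -0.10 to 0.28, Psat at -0.20 to 0.04 and PPP1R15 at -0.01 to 0.15. The cause was not tested.

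With the replicate number as a block, 3624 genes were called. Differences between replicates 1 and 2 correlated at r = -0.165 between genotypes across genes, and a block with crossed numbers, added after seeing the data, gave 2729 calls. The labels do not say that numbers pair the libraries. Promoter motifs and protein sequences were not analysed here. Low control levels, such as Gadd45 at about 100 and 220 reads, limit the precision of its ratio.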
